A study of Mus musculus with 4 samples.

Results

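Mitosis and spindle genes were followed here as a group of 42 genes whose products condense, capture, align and separate chromosomes and then divide the cell. Members were chosen by name: every non-control spot whose RefSeq accession belongs to a listed gene was taken, and the brightest probe stands for a gene with several. All 42 had at least 1 probe, among 20659 genes that could be named on the array, and all 42 entered the test among 22930 features. A feature is a gene, or an unnamed array identifier, whose probe exceeded background clearly, by the scanner software's flag, on 2 or more of the 4 arrays.

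Most mitotic genes are silent in resting cells and switch on together late in the cell cycle, so in a tissue their RNA marks cells that are dividing. In resting cells a repressor that includes the DREAM complex holds them down, through a short promoter element called the cell cycle homology region (CHR) near the gene start. In dividing cells the factors B-Myb and FoxM1 activate them, commonly with the factor NF-Y, which binds CCAAT boxes. After a myocardial infarction, dividing cells of the heart include fibroblasts, endothelial cells and cells of the immune infiltrate, while most adult heart muscle cells do not divide.

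The samples were hearts of male mice taken 5 days after the left anterior descending coronary artery was ligated, which causes an infarction. In the knock-out group (KO), Cre recombinase is expressed from the VE-cadherin promoter, which is active in endothelial cells, in mice with both S1pr1 alleles floxed (VE-Cad-Cre-S1pr1 fl/fl). S1pr1 encodes a receptor for sphingosine 1-phosphate. The comparison group is labelled WT. The labels do not say whether WT mice carried Cre or floxed alleles, nor how old the mice were, and all hearts were infarcted. WT replicates 1 and 3 and KO replicates 3 and 4 were each hybridised to a 1-colour Agilent array. These numbers are the ones that follow the genotype in the sample titles. With 2 arrays per genotype, and no label saying that they are separate animals, the p-values reflect nothing but the spread among these arrays, which may be technical.

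S1pr1 had levels of 0.43 and 0.95 in WT and -2.69 and -2.30 in KO, lower on both KO arrays (difference -3.19, SE 0.38, adjusted p = 0.74 in limma). Whether its probe lies in the floxed part was not determined, so this checks the label only if it does. A level is a log2 signal from which the array's 75th percentile was subtracted, and a difference is the KO mean minus the WT mean of levels. On 1 slide, WT replicates 1 and 3 lay at positions 4 and 3, and KO replicates 3 and 4 at positions 2 and 1, so position and genotype cannot be told apart. WT replicate 1 was the least sensitive array, with 54.3% of probes well above background against 69.4% to 73.4% on the others. It also had the lowest heart muscle markers (mean level 1.80, against 5.77 to 6.57), while KO replicate 4 stood apart in the mitotic genes themselves. All 11 heart muscle markers were well above background on all 4 arrays, as a heart label requires. Precision is limited throughout by having 4 arrays.

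The comparison asks how mitotic gene expression in the infarcted heart differs between VE-Cad-Cre-S1pr1 fl/fl mice and WT mice. Of the 42 genes, 40 had a lower mean in KO and 2 a higher one (Pttg1 and Cenpf), where 45.2% of all features had a lower mean and 54.8% a higher one. Their median difference was -2.39, a 5.23-fold lower level, and the median of all features was 0.072. The group mean was 0.89 (WT 1), -0.27 (WT 3), -0.22 (KO 3) and -3.45 (KO 4), the numbers in brackets naming the replicates. It was thus highest on WT replicate 1, nearly the same on both arrays numbered 3, and lowest on KO replicate 4. In bulk tissue, fewer dividing cells and less mitotic RNA per cell cannot be told apart.

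No member passed the test. At an adjusted p under 0.05, limma called 0 of the 42 and 0 of 22930 features (0%), and the members' adjusted p ran from 0.74 to 0.926. At an unadjusted p under 0.05 it counted 0 of the 42 and 633 features (2.76%). With the trend and robust options these counts were also 0 called, and 0 of the 42 at an unadjusted p under 0.05. Both KO arrays lay below both WT arrays for 16 members (16.1% of all features), and above them for 0 (18.3%). Among these 16, KO replicate 3 minus WT replicate 3 ran from -0.58 (Cdca3) to -0.0014 (Melk), so some of them separate by very little. For any single gene, exact two-sided permutation of the 4 arrays cannot give a p below 0.333. The 42 genes share the same 4 arrays, so they are not separate replicates of the comparison.

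KO replicate 4 lay apart from the other arrays. It was the lowest array for 40 of 42 members (27.6% of all features), and for 36 it was at least 4-fold below KO replicate 3 (2.94% of all features). KO replicate 4 minus KO replicate 3 had a median of -3.66 over the members, a 12.7-fold lower level, and of 0.17 over all features. Of the members, 39 were still well above background on KO replicate 4, and Kif2c, Ttk and Nuf2 were not, so their differences depend on how dim signals are treated. With a common floor under dim signals, the lowest level flagged above background on the least sensitive array, the difference was -1.81 for Kif2c, -0.58 for Ttk and -1.54 for Nuf2. That floor lowered the size of 6 members' differences by over 1.5 times (also Kif11, Espl1 and Cenpf), and normexp background correction did so for 13.

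**Figure D1:**
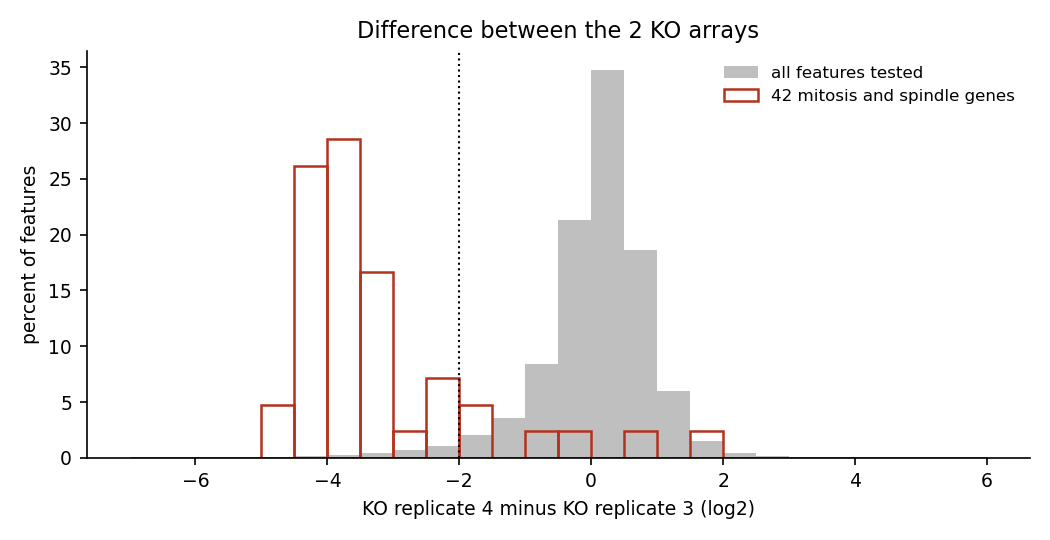
Difference between KO replicate 4 and KO replicate 3 on the log2 scale (horizontal axis) against the percent of features in each bin (vertical axis), for all 22930 features (grey bars) and the 42 mitosis and spindle genes (red outlines). The dotted line marks a 4-fold lower level on KO replicate 4; 36 of the 42 genes lie at or beyond it.

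The other arrays differed less. WT replicate 1 was the highest array for 40 members (39.0% of all features), with a median of -1.24 for WT replicate 3 minus WT replicate 1. KO replicate 3 and WT replicate 3 differed by a median of 0.073, and were within 0.5 of each other for 39 members. KO replicate 3 was the lower of these arrays for 18 members and the higher for 24. Without KO replicate 4 the median KO minus WT was -0.51, with 41 of 42 members lower (51.3% of all features). That fit sets KO replicate 3 against the mean of both WT arrays, of which WT replicate 1 was the highest array for 40 members. Without KO replicate 3 it was -4.16. Without WT replicate 1 it was -1.71, and without WT replicate 3 it was -3.04. Each of these fits leaves 1 array alone in its genotype, and assumes that it varies like the other genotype's arrays.

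**Figure D2:**
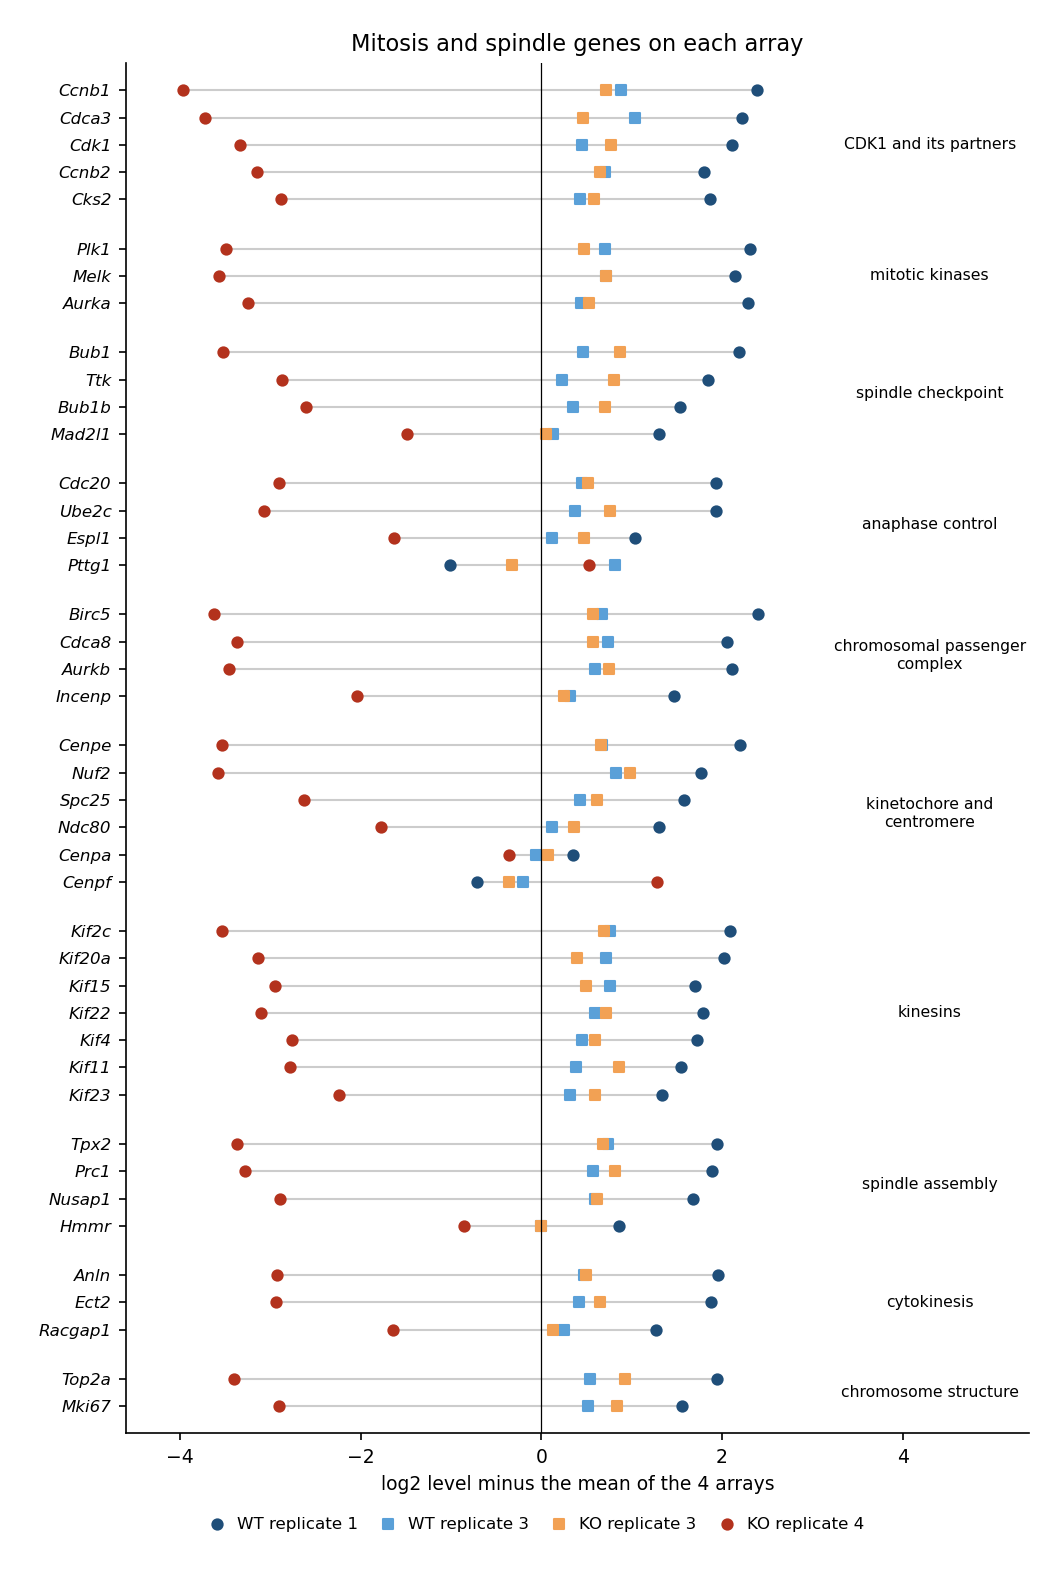
Level of each of the 42 genes on each of the 4 arrays, as log2 level minus the gene's own mean over the arrays (horizontal axis), with genes in rows by role. Dark blue circles are WT replicate 1, light blue squares WT replicate 3, orange squares KO replicate 3 and red circles KO replicate 4; in 40 rows the red circle is leftmost and the dark blue circle rightmost, the exceptions being Pttg1 and Cenpf. Squares of equal value cover each other.

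The promoters of the members share sequence that their choice by name did not use. RefSeq promoter windows (GRCm38.p6, 250 bases before to 50 after the gene start) were matched for 38 of the 42; Aurkb, Incenp, Kif20a and Tpx2 had no entry. The CHR core, written TTTGAA and in a variant form TTTAAA, was searched on both strands and occurred in 31 of 38 windows (81.6%), and in 30.6% of the 27025 genes with a window. CCAAT, the core of the NF-Y box, occurred on either strand in 28 windows (73.7%, against 41.1% of genes), and at least 2 copies stood in 20 (52.6%, against 13.3%). Both kinds were found in 26 of 38 (68.4%, against 13.4%). Among protein-coding genes alone the shares were 28.2% for the CHR letters, 42.3% for CCAAT and 12.7% for both. A match is a run of letters, not a shown binding site.

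**Figure D3:**
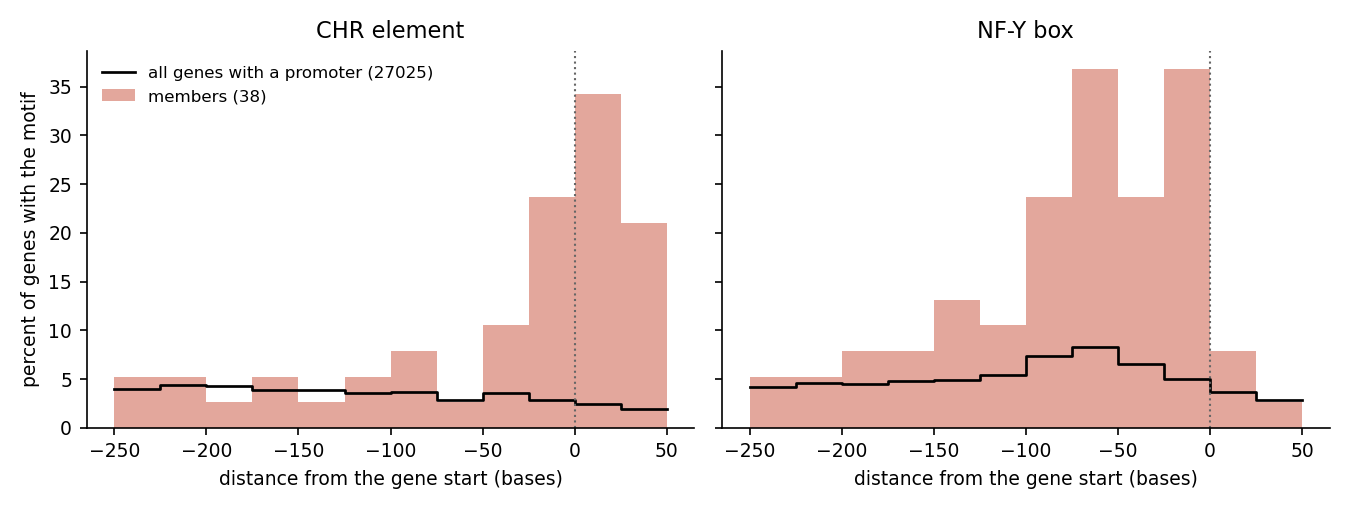
Percent of genes with a CHR element (left) or an NF-Y box (right) in each 25-base bin by distance from the gene start, for 38 members (bars) and all 27025 genes with a promoter window (line). CHR letters of the members gather from 25 bases before to 50 after the start, where 23.7%, 34.2% and 21.1% of members have one per bin, and NF-Y boxes in the 100 bases before it.

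Shown first are promoters of 7 landmark genes of mitosis, because they carry the pairing of NF-Y box and CHR letters found in 26 of the 38. Each line runs 5′ to 3′ along the gene from 150 bases before to 30 bases after its start, and capitals mark the CHR and NF-Y letters on either strand.
Ccnb1: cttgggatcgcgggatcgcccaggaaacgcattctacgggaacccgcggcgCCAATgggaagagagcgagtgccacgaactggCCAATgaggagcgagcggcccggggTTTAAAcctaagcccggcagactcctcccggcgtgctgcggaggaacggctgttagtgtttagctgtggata
Cdk1: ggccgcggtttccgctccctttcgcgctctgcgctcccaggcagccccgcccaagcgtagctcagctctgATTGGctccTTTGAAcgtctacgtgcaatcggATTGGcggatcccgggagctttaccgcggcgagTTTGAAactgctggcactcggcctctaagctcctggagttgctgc
Plk1: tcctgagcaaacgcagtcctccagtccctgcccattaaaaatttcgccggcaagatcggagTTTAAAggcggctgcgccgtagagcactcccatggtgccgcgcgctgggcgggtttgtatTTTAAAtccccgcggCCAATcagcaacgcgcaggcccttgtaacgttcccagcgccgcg
Cdc20: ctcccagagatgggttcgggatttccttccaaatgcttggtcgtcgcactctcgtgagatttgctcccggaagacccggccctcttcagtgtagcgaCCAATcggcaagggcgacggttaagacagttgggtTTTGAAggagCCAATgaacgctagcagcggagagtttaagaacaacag
Top2a: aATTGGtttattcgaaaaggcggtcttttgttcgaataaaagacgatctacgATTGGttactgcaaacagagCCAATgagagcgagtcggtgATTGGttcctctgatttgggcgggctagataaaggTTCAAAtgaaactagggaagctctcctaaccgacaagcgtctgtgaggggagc
Mki67: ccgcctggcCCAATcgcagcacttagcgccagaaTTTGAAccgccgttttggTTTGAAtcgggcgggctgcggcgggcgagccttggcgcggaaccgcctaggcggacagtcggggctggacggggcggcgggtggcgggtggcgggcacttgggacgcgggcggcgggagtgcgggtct
Kif11: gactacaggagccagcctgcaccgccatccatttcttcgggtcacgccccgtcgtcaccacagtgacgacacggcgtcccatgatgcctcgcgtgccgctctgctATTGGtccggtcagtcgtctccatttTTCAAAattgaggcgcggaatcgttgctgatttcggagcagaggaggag
These windows lie at chr13:100786457-100786636 for Ccnb1 (minus strand), chr10:69352883-69353062 for Cdk1 (minus strand), chr7:122159285-122159464 for Plk1 (plus strand), chr4:118437314-118437493 for Cdc20 (minus strand), chr11:99024160-99024339 for Top2a (minus strand), chr7:135716350-135716529 for Mki67 (minus strand), chr19:37376232-37376411 for Kif11 (plus strand). In Cdk1, CHR letters begin at positions -71 and -15 from the start, and NF-Y boxes at -208, -80 and -48, the first of them outside the printed stretch. In Cdc20, CHR letters at -18 lie between NF-Y boxes at -53 and -8. Kif11 carries both on the opposite strand, the box at -45 and the CHR letters at -19. Top2a has 6 NF-Y boxes in its whole window, and Mki67 has its CHR letters farther out, at -116 and -98.

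Hmmr, Melk and Pttg1 are shown next, chosen after their values were seen, because they contrast motif content with the size of the difference.
Hmmr: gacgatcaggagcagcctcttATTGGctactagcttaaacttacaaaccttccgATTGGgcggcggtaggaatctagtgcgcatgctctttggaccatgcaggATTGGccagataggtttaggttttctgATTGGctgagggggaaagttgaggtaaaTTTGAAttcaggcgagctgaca
Melk: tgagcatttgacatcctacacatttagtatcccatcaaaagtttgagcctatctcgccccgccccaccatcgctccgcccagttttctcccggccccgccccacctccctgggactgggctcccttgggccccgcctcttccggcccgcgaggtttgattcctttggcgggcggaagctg
Pttg1: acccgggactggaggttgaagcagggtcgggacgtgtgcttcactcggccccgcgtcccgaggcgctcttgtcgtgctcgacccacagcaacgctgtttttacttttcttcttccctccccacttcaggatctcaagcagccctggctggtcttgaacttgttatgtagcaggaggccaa
They lie at chr11:40733408-40733587 for Hmmr (minus strand), chr4:44300767-44300946 for Melk (plus strand), chr11:43425952-43426131 for Pttg1 (minus strand). Hmmr has CHR letters and 5 NF-Y boxes in its whole window, and differed by -0.86 (SE 0.51). Melk has neither motif and differed by -2.86 (SE 1.56), while Pttg1, also with neither, differed by 0.19 (SE 0.74). By motif content, the median difference was -2.30 in the 26 members with both motifs, -2.45 in the 7 with 1 kind and -2.27 in the 5 with neither.

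Entry into mitosis is driven by CDK1 with its B-type cyclins. All 5 members of this role had a lower mean in KO, with a median difference of -2.56. Cdk1, the kinase itself, had levels of 2.11 and 0.46 in WT and 0.78 and -3.33 in KO. Its KO arrays thus lay on either side of WT replicate 3, and its difference was -2.56 (SE 1.53). A further Cdk1 probe gave 0.46, -1.12, -0.80 and -4.93 in the same order, and a dim one that was not well above background on every array differed by 0.21. Ccnb1, the main cyclin of mitotic entry, had levels of 1.85 and 0.34 in WT and 0.18 and -4.51 in KO. Both KO values were below both WT values, and the difference between genotypes was -3.26 (SE 1.69). KO replicate 4 minus KO replicate 3 was -4.69, the most negative of the 42. Its further probes differed by -3.08 and -2.39, and on both of them KO replicate 3 was above WT replicate 3. The sister cyclin Ccnb2 differed by -2.51 (SE 1.37), with levels of 1.72 and 0.63 in WT and 0.56 and -3.23 in KO. Cdca3, which helps destroy the CDK1 inhibitor WEE1, had the smallest unadjusted p of the whole group, 0.0901 in limma (adjusted p = 0.74), with levels of 2.20 and 1.03 in WT and 0.45 and -3.74 in KO and a difference of -3.26 (SE 1.5). On the brightest probe the genotypes did not overlap for Ccnb1, Ccnb2 and Cdca3. Cks2, a small CDK-binding subunit, differed by -2.30 (SE 1.31).

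Of the members, 3 were grouped as mitotic kinases, and all 3 had a lower mean in KO (median difference -2.86). Plk1, the polo kinase that acts at centrosomes, kinetochores and the cleavage site, had levels of 2.42 and 0.82 in WT and 0.58 and -3.39 in KO. Its genotypes did not overlap, KO replicate 3 minus WT replicate 3 was -0.24, and the genotypes' difference was -3.02 (SE 1.48). Aurka, the centrosomal aurora kinase, had levels of 1.69 and -0.15 in WT and -0.066 and -3.84 in KO, a difference of -2.72 (SE 1.45) and arrays that overlapped. Melk, a kinase of dividing and progenitor cells, had levels of 0.60 and -0.83 in WT and -0.83 and -5.12 in KO and differed by -2.86 (SE 1.56). In all 3, WT replicate 1 was highest and KO replicate 4 lowest.

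The spindle checkpoint delays anaphase until every kinetochore is attached, and the anaphase-promoting complex then ends the delay. All 4 checkpoint genes had a lower mean in KO (median difference -1.98). Mad2l1, which inhibits CDC20, had levels of 2.23 and 1.06 in WT and 0.98 and -0.57 in KO and differed by -1.44 (SE 0.72); its 3 probes differed by -1.44, -1.1 and -1.38. The genotypes did not overlap on the brightest of them and overlapped on the others. The checkpoint kinase Bub1 had levels of 1.38 and -0.35 in WT and 0.06 and -4.34 in KO and differed by -2.65 (SE 1.63). Its partner Bub1b had levels of -0.66 and -1.85 in WT and -1.5 and -4.81 in KO and differed by -1.89 (SE 1.23). Bub1 and Bub1b overlapped between genotypes. The kinase Ttk differed by -2.07 (SE 1.39), with its level on KO replicate 4 not well above background, and by -0.58 with the common floor and -0.49 with normexp.

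Of the anaphase genes, Cdc20, the activator of the anaphase-promoting complex, had levels of 3.42 and 1.94 in WT and 2.0 and -1.43 in KO and differed by -2.39 (SE 1.3). Ube2c, the ubiquitin-conjugating enzyme that works with that complex, had levels of 1.15 and -0.41 in WT and -0.025 and -3.85 in KO and differed by -2.31 (SE 1.43). Both arrays numbered 3 lay between the extremes for each gene. Espl1, the separase that cuts cohesin, had levels of -2.85 and -3.78 in WT and -3.41 and -5.52 in KO and differed by -1.16 (SE 0.84). Pttg1, the securin that restrains separase, did not follow them: it had levels of 1.82 and 3.64 in WT and 2.49 and 3.35 in KO, with WT replicate 1 the lowest, and it differed by 0.19 (SE 0.74). The other Pttg1 probe differed by -0.39, so its probes disagreed in sign.

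The chromosomal passenger complex corrects attachments and positions the cleavage furrow. All 4 subunits had a lower mean in KO (median difference -2.75). Birc5, the survivin subunit, had levels of 3.63 and 1.91 in WT and 1.81 and -2.39 in KO. Its KO values were both below WT on this probe, and overlapped with WT on its further probes. Its 3 probes differed by -3.06, -2.59 and -3.17. Aurkb, the kinase subunit, had levels of -0.61 and -2.13 in WT and -1.97 and -6.18 in KO and differed by -2.70 (SE 1.54). The borealin gene Cdca8 differed by -2.80 (SE 1.44), with levels of 2.38 and 1.06 in WT and 0.89 and -3.05 in KO. Incenp, the scaffold, had levels of 3.12 and 1.96 in WT and 1.90 and -0.40 in KO with KO replicate 4 minus KO replicate 3 at -2.30 against -4.20, -4.21 and -3.94 for Birc5, Aurkb and Cdca8.

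Of 6 kinetochore and centromere genes, 5 had a lower mean in KO and Cenpf a higher one. Cenpe, a kinesin that moves chromosomes to the spindle equator, had levels of 1.98 and 0.44 in WT and 0.44 and -3.75 in KO and differed by -2.87 (SE 1.54). Among subunits of the NDC80 complex, which grips microtubule ends, Spc25 had levels of 1.42 and 0.27 in WT and 0.46 and -2.79 in KO, Nuf2 of -1.15 and -2.09 in WT and -1.95 and -6.51 in KO and Ndc80 a difference of -1.42 (SE 0.88). On KO replicate 4 the Nuf2 probe was not well above background. Cenpa, the histone H3 variant that marks the centromere, spanned little, with levels of 1.14 and 0.73 in WT and 0.86 and 0.44 in KO. Its difference was -0.28 (SE 0.36), the smallest of the 40 genes with a lower mean, though WT replicate 1 was again highest and KO replicate 4 lowest. Cenpf, a large kinetochore protein, ran the other way, at -5.46 and -4.94 in WT and -5.11 and -3.46 in KO, a difference of 0.92 (SE 0.66). It was not well above background on WT replicate 1, where the dimmest signal flagged above background was -4.39. Both arrays numbered 3 were under that limit, and KO replicate 4 was over it.

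Mitotic kinesins, the motors of the spindle, had 1 direction: all 7 had a lower mean in KO (median difference -2.38, range -2.84 to -1.64), and all 7 were at least 4-fold lower on KO replicate 4 than on KO replicate 3. Kif11, which pushes the spindle poles apart, had levels of -1.43 and -2.60 in WT and -2.11 and -5.76 in KO, with KO replicate 3 above WT replicate 3. Kif20a, which acts at the central spindle, had levels of 2.15 and 0.85 in WT and 0.53 and -3.00 in KO, with no overlap, and differed by -2.73 (SE 1.31). Kif15, which backs up Kif11, had levels of -1.01 and -1.95 in WT and -2.22 and -5.66 in KO and no overlap. Kif2c, which takes apart microtubules at kinetochores, had levels of -0.84 and -2.17 in WT and -2.23 and -6.46 in KO, the last of them not well above background. It differed by -2.84 (SE 1.53) and its other probe by -2.78. The chromosome-arm motors Kif4 and Kif22 differed by -2.17 and -2.38, and Kif23, of the central spindle, by -1.64.

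Genes for spindle assembly and cytokinesis followed the same arrays. Tpx2, which activates Aurora A on the spindle, had levels of 0.98 and -0.22 in WT and -0.28 and -4.33 in KO and differed by -2.68 (SE 1.46). Nusap1, a microtubule-binding protein, had levels of 0.75 and -0.34 in WT and -0.31 and -3.82 in KO and differed by -2.27 (SE 1.28). The genotypes overlapped for Nusap1 and not for Tpx2. Prc1, which bundles the central spindle, differed by -2.46 (SE 1.49). Hmmr, a spindle protein also described as a hyaluronan receptor, had levels of 0.012 and -0.85 in WT and -0.86 and -1.71 in KO, without overlap. For cell division itself, Anln, the anillin of the contractile ring, had levels of 2.62 and 1.14 in WT and 1.17 and -2.25 in KO. Ect2, the exchange factor that switches on RhoA at the furrow, had levels of 1.1 and -0.36 in WT and -0.13 and -3.72 in KO, and both genes overlapped between genotypes. Racgap1, its partner, had levels of -0.14 and -1.15 in WT and -1.28 and -3.05 in KO and differed by -1.52 (SE 0.75); its other probe differed by -2.40.

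Widely used markers of dividing tissue had the same lowest and highest arrays. Mki67, the Ki-67 coat of mitotic chromosomes, had levels of 3.16 and 2.12 in WT and 2.45 and -1.3 in KO, so KO replicate 3 exceeded WT replicate 3. Its difference was -2.07 (SE 1.35), and -0.20 without KO replicate 4. Top2a, which untangles sister DNA, had levels of -0.034 and -1.44 in WT and -1.06 and -5.39 in KO, a difference of -2.49 (SE 1.57), and -0.32 without KO replicate 4. For both genes the genotypes overlapped. Over all roles, 13 genes had several probes; of 16 further probes well above background on at least 2 arrays, 15 had a lower mean in KO and 14 were lowest on KO replicate 4. Separation of the genotypes held less well across probes. Of the 16 members without overlap on the brightest probe, 8 had such further probes, and the genotypes overlapped on 9 of these 11 probes, in Birc5, Ccnb1, Cdca8, Kif2c, Mad2l1 and Tpx2; they stayed apart in Incenp and Racgap1.

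**Figure D4:**
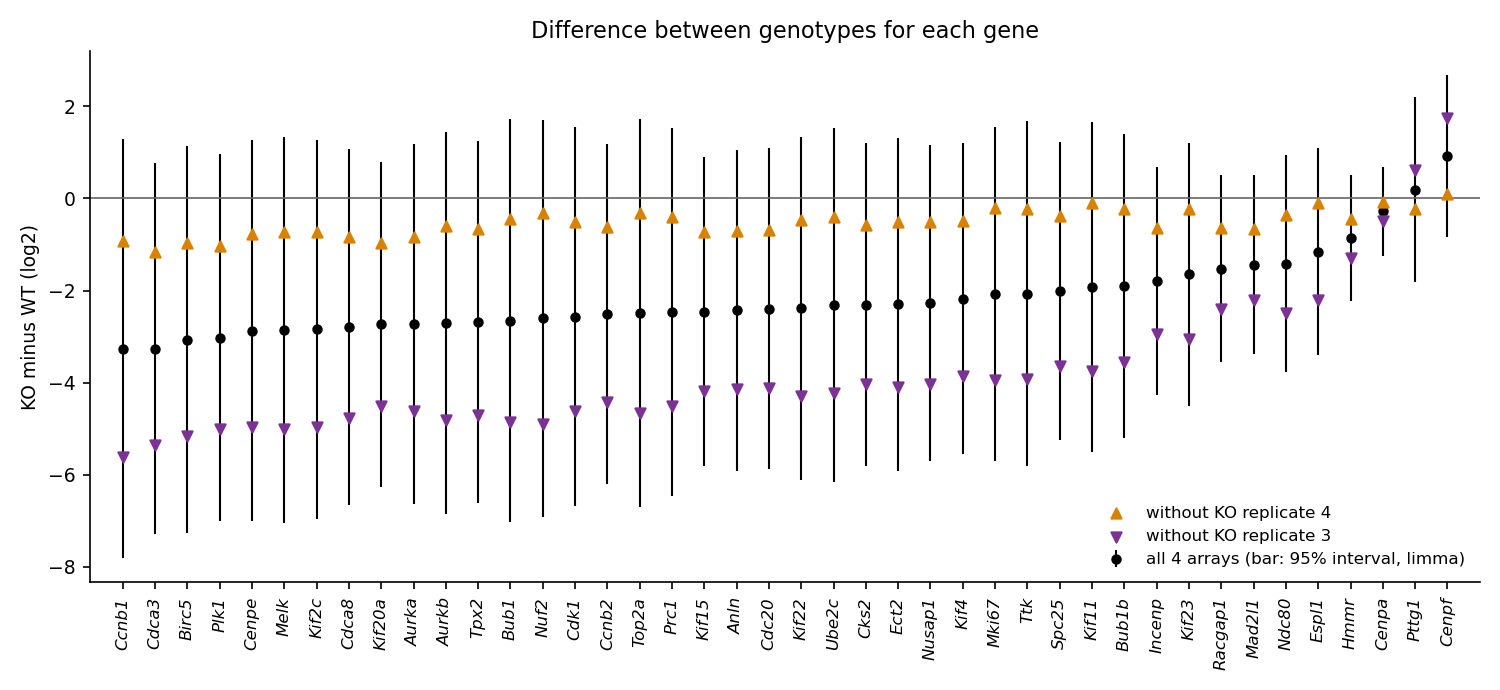
KO minus WT on the log2 scale (vertical axis) for each of the 42 genes, ordered by difference. Black points are the limma estimates from all 4 arrays with 95% intervals, all of which include 0; orange triangles leave out KO replicate 4 and purple triangles KO replicate 3, with medians of -0.51 and -4.16.

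A list of 70 other mitotic genes gave the same order of arrays. Of 69 tested, all 69 had a lower mean in KO, 0 were called by limma, and both KO arrays lay below both WT arrays for 20 (16.1% of all features). Kif14 had no probe under that name here. The median difference was -1.90, and the list mean was -0.33 (WT 1), -1.51 (WT 3), -1.37 (KO 3) and -4.23 (KO 4). KO replicate 4 was lowest for 68 of them. Ncapg2, of the condensin complex that compacts chromosomes, had the smallest unadjusted p, 0.0795 in limma, with levels of 1.74 and 0.57 in WT and 0.20 and -2.12 in KO. Cdkn3, a phosphatase of CDKs, differed by -2.50 (SE 1.13), and the centromere gene Cenpi by -2.25 (SE 1.04). Ccna2, the cyclin of S phase and early mitosis, had levels of 2.56 and 1.54 in WT and 1.48 and -2.81 in KO and differed by -2.72 (SE 1.52).

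Factors that activate mitotic genes differed among themselves. Foxm1, itself periodic, had levels of 0.32 and -0.38 in WT and -0.70 and -3.98 in KO and differed by -2.31 (SE 1.18). Mybl2, which encodes B-Myb, had levels of 1.03 and -0.12 in WT and -0.18 and -2.22 in KO and differed by -1.65 (SE 0.85). Neither overlapped between genotypes. Lin52 of the MuvB core differed by 0.47 (SE 0.39). Of the 10 genes of this list, which also holds other MuvB and NF-Y subunits, 8 had a lower mean in KO (median -0.31), and KO replicate 4 was at least 4-fold below KO replicate 3 for 2.

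Lists for earlier steps of the cycle had medians nearer 0. Of 13 G1 cyclins, kinases and E2F activators, 10 had a lower mean in KO (median -0.38), and 10 had WT replicate 1 highest and KO replicate 4 lowest (23.5% of all features). The mean of this list was 0.39 (WT 1), -0.052 (WT 3), 0.10 (KO 3) and -0.71 (KO 4). Cyclin E1, Ccne1, which opens S phase, differed by -1.67 (SE 0.82), the activators E2f1 by -1.61 (SE 0.92) and E2f2 by -1.75 (SE 1.04). Ccnd1, the cyclin that relays growth signals, had levels of 1.12 and 1.43 in WT and 2.01 and 1.56 in KO, higher on both KO arrays, and differed by 0.51 (SE 0.36). Of 16 CDK inhibitors and quiescence genes, 9 had a lower mean (median -0.033). Cdkn1a, which encodes p21, differed by -0.42 (SE 0.42), Cdkn1c, which encodes p57, by 0.84 (SE 0.53), the pocket protein gene Rbl2 by 0.75 (SE 0.35) and Cdkn2b by -1.46 (SE 0.70). No gene of these lists was called.

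Machinery that mitosis shares with resting cells had medians nearer 0. The 15 core subunits of the anaphase-promoting complex had a median of -0.06, with 9 lower in KO and all differences between -0.45 and 0.72. The smallest p went to Anapc13, at 0.72 (SE 0.49), Anapc1, at -0.45 (SE 0.32), and Anapc16, at 0.68 (SE 0.57). Both KO arrays were below both WT arrays for 5 of these 15 (33.3%), among them Anapc1, and for 38.1% of the 42 mitotic genes. Over all features that share was 16.1%. They were above both WT arrays for 1 of the 15 (18.3% of all features). The 15 cohesin and tubulin genes had a median of -0.11. Within that list, the tubulins Tuba1c, Tuba1a and Tubb5 had the smallest p. Tuba1c differed by -1.43 (SE 0.49), Tuba1a by -0.99 (SE 0.48) and Tubb5 by -0.99 (SE 0.49), and Tuba1c had levels of 5.79 and 4.99 in WT and 4.37 and 3.55 in KO. KO replicate 4 minus KO replicate 3 had a median of -3.66 for the 42 mitotic genes and 0.21 for the complex's core, as values without a test.

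By list mean, macrophage and red cell markers had the same lowest and highest array as the mitotic genes, though not every marker did. The mean of the macrophage markers was 2.41 (WT 1), 1.65 (WT 3), 1.61 (KO 3) and 0.61 (KO 4). Of these markers, 12 of 13 were lower in KO and 8 were lowest on KO replicate 4 (27.6% of all features). Their summed level on the log2 scale was 7.62 and 6.90 for WT, with 6.49 and 5.69 for KO. Red cell markers had a mean of 1.08 (WT 1), -0.23 (WT 3), -0.54 (KO 3) and -0.62 (KO 4). Their summed level was 7.06 and 5.67 for WT, with 5.18 and 4.96 for KO. Of these markers, 4 of 5 were lower in KO and 2 were lowest on KO replicate 4. Their median level was lowest on KO replicate 3, at -1.28 against -1.18 on KO replicate 4. The red cell marker Klf1 was well above background on only 2 of the 4 arrays. Its level was -5.84 on KO replicate 3 and -6.23 on KO replicate 4, and it enters the list mean. Each macrophage marker tested except Cd163 was well above background on all 4 arrays, and Cd68 had no probe under that name here. Fibroblast markers had a mean of 3.6 (WT 1), 3.54 (WT 3), 3.93 (KO 3) and 2.67 (KO 4) and a summed level of 8.95 and 9.1 for WT, with 9.15 and 8.0 for KO, with 6 of 10 lower in KO and 7 lowest on KO replicate 4. Endothelial markers, with 12 of 12 higher in KO, had a mean of 0.92 (WT 1), 1.18 (WT 3), 1.5 (KO 3) and 1.35 (KO 4) and a summed level of 6.17 and 6.41 for WT, with 6.72 and 6.46 for KO; Erg alone was not well above background on every array. Heart muscle markers ran opposite to the mitotic genes on the outer arrays, at 1.80 (WT 1), 5.97 (WT 3), 5.77 (KO 3) and 6.57 (KO 4), with 11 of 11 higher in KO and a summed level of 7.18 and 10.06 for WT, with 9.86 and 10.59 for KO. The part of any of these cell types in the mitotic differences was not tested.

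In the same order of arrays, the mean was -0.22, -1.82, -1.32 and -0.90 for 9 neutrophil markers and -2.49, -3.09, -2.31 and -2.97 for 7 T and NK cell markers. Their summed levels were 6.06 and 5.67 for WT, with 5.79 and 6.06 for KO for neutrophils, and 1.16 and 1.0 for WT, with 1.34 and 1.32 for KO for T and NK cells, orders unlike that of the mitotic genes. For 8 smooth muscle and pericyte markers the mean was 1.64, 1.77, 1.91 and 1.55. Their summed level was 7.59 and 6.34 for WT, with 6.35 and 5.80 for KO. That sum was highest on WT replicate 1 and lowest on KO replicate 4, while the mean was highest on KO replicate 3. By gene, 4 of the 8 had a lower mean in KO and 4 a higher one. WT replicate 1 was highest and KO replicate 4 lowest for 4 of them (23.5% of all features). B cell markers, 4 tested, were at -2.06, -4.15, -1.77 and -5.36, also lowest on KO replicate 4, but KO replicate 3 was their highest array and Pax5 and Ms4a1 were not well above background on every array. The summed levels of the B cell markers were 1.04 and -1.53 for WT, with 1.26 and -2.90 for KO. The part of these cell types, too, was not tested.

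**Figure D5:**
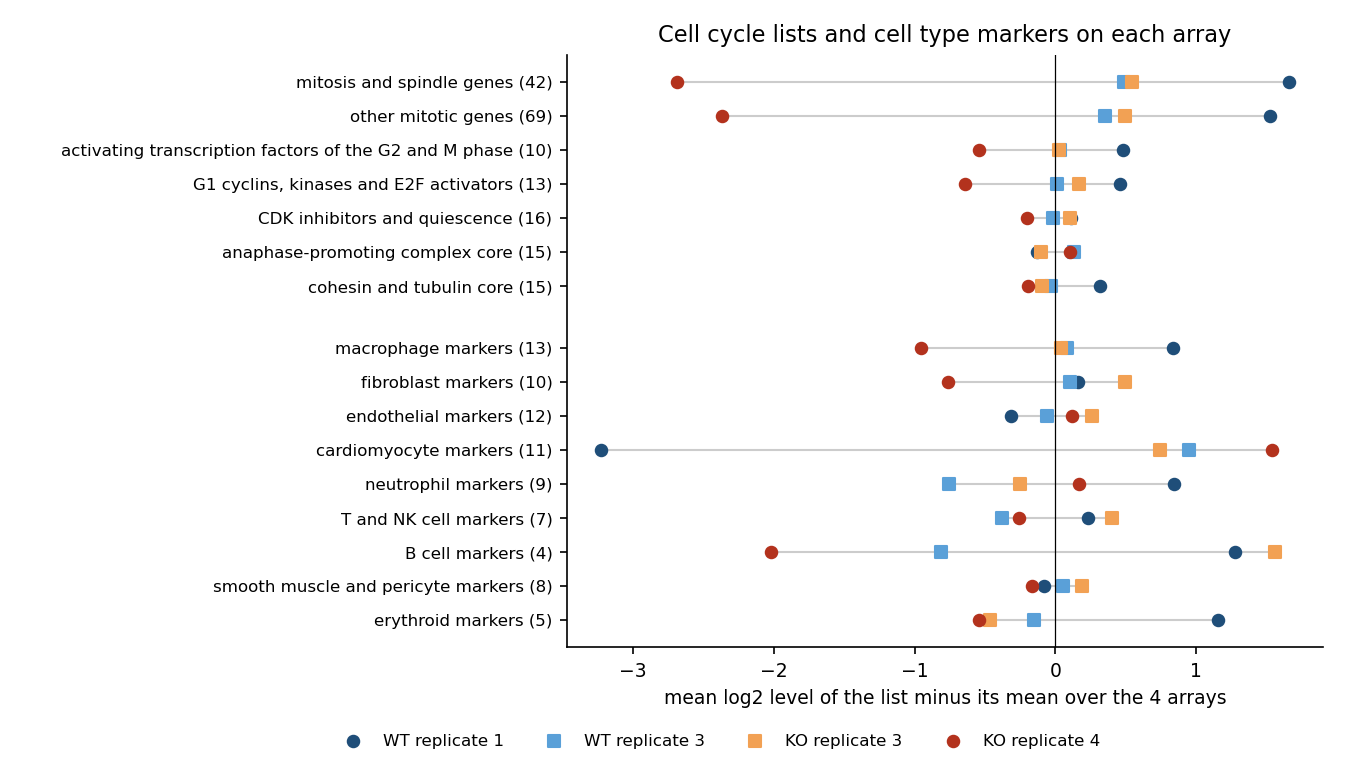
Mean log2 level of each gene list on each array, minus the list's own mean over the 4 arrays (horizontal axis), with the number of genes tested in brackets. Every cell cycle list except the anaphase-promoting complex core, and the macrophage and red cell markers, have KO replicate 4 (red circles) lowest and WT replicate 1 (dark blue circles) highest, with spans that differ, while heart muscle markers have KO replicate 4 highest and WT replicate 1 lowest. For red cell markers the KO arrays lie close together.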

How the data were processed

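RNA from infarcted hearts (4 samples) was measured on 1-colour Agilent arrays. The deposited scanner files give an intensity per spot, and the processed one was used, already corrected for background and spatial trend within its array. Their flags for outliers, saturation and signal over background are another kind of value, taken unaltered per the file headers. The headers name Feature Extraction 11.0.1.1 and the mm9 build, whereas version 9.1 of Agilent Feature Extraction stands in the submitters' processing notes. The deposited value table holds log2 values, with a median of 6.12 in all 4 columns and slopes of 0.997 to 1.01 against log2 scanner signals. The authors' step between arrays is not given in the sources used here, nor is the table's centring.

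Control and outlier spots were left out, log2 values of repeated spots were averaged per probe, and each array's 75th percentile was subtracted. No spot was saturated (0 on each array). Probes flagged over background on 2 or more of 4 arrays were kept, and the probe of highest mean represented a gene. No member passed through 1 genotype alone (0 of 42). Of 39429 probes, 27234 had 1 symbol of the GRCm38.p6 RefSeq table, 0 several and 12195 none.

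The test of KO minus WT was limma (3.58.1, under R 4.3.3; lmFit, eBayes), two-sided; p was adjusted across every feature by Benjamini-Hochberg, with calls at 0.05. The fit was tested on simulated data, where estimates had to lie near the known changes. Recovery of changed features was required only at a spread much smaller than the fitted one. The simulation therefore does not show what the test can detect at the spread of these arrays. The members, lists and rules were chosen with earlier results of these data known. Every member could be named; array values are given for up to 3 per role of smallest p, for 9 landmark genes, and for Cenpa, Cenpf and Pttg1, added after their values were seen. Other lists are shown by the 3 genes of smallest p, with Foxm1, Mybl2, Ccna2, Cdkn1a, Cdkn1c and Ccnd1. A planned comparison of protein sequences was not run. Alternatives are given in the closing section.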

Additional observations from a re-analysis of the deposited data

How the results depend on the processing

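Over 14 alternatives with a test (scaling, filter, background correction, deposited values, mean of probes, a common floor under dim signals, limma's robust and trend settings, a 0.10 threshold, and each array left out), 0 members and 0 features were called. The count of members with a lower mean was 40 of 42, and 37 of 38 among those well above background on all 4 arrays, 41 with the mean of probes and 40 to 41 with an array left out; it was 18 on the arrays numbered 3 alone, where the median difference was 0.073. The median of the members ranged from -2.50 (median scaling) to -1.73 (normexp on median signals, the files holding no mean signal, with an offset of 50), and from -4.16 to -0.51 with an array left out, the lowest without KO replicate 3 and the highest without KO replicate 4. Median scaling moved the median of all features from 0.072 to -0.038. The number with both KO arrays below both WT arrays was 11 with the mean of probes, 14 with quantile normalization and with the deposited values, 19 with median scaling and 16 to 40 with an array left out, and the number with an unadjusted p under 0.05 was 0 to 39, and 2 with normexp. The upper end of that p count came from the fit without KO replicate 3 alone, which sets KO replicate 4 against both WT arrays. No other fit with an array left out had a member under that threshold. With 1 array alone in its genotype, arrays separate more easily, so both kinds of count from these fits are not evidence of a group difference. The other mitotic genes had a median of -3.48 to -0.46 with an array left out and 0.12 on the arrays numbered 3 alone. The G1 list had 0.13 on the arrays numbered 3. Pttg1 changed sign, at -0.096 with the mean of its probes and from -0.71 to 1.1 with an array left out; no other member changed sign in a fit with a test. No paired analysis was run, because no label matches WT arrays with KO arrays. The number 3 that both genotypes carry does not establish a pair. Signal over background limits dim genes, most of all on WT replicate 1.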
